A study of Mus musculus with 3 samples.

Results

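The 8 genes described here are Pdcd1, Lag3, Tigit, Ctla4, Havcr2, Tox, Itgae and Cd69, taken by symbol from the 31053 genes of a single-cell RNA sequencing matrix of mouse brain, and followed in T cell and NK cell barcodes. Brain tissue came from control mice, mice with ischemic stroke (IS, by occlusion of the middle cerebral artery) and mice with hemorrhagic stroke (HS, by collagenase injected into the striatum). All mice had an age of 10 weeks and a strain given as C56BL6, with no transgene or deletion named in the labels. Each condition was 1 sample, for which the methods name several mice, so animals were pooled, and no source read here states how long after the stroke this tissue was taken. A barcode suffix of 1, 2 or 3 marks the library in the matrix, and neither the labels nor the files name the condition of a suffix. Values are therefore given pooled and by suffix, no comparison between control, IS and HS was made, and no test between samples was possible.

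T barcodes were those with a UMI (unique molecular identifier, a counted RNA molecule) of at least 2 of Cd3d, Cd3e, Cd3g, Trac and Trbc2, and with less than 0.5% of UMIs from the microglial genes C1qa, C1qb and C1qc. They numbered 2769 of the 31982 barcodes kept, with 1028 in suffix 1 (11.5% of its barcodes), 1710 in suffix 2 (12.4%) and 31 in suffix 3 (0.335%), and a median of 4845 UMIs. A UMI of Cd8a or Cd8b1 without Cd4 marked 1542 CD8 T barcodes, a UMI of Cd4 without Cd8a and Cd8b1 marked 250 CD4 T barcodes, 966 had neither and 11 had both. NK barcodes, with at least 2 of Ncr1, Klrb1c, Klre1 and Klra8, under 2 T genes and the same C1q limit, numbered 354. The make-up by suffix differed, since CD8 T barcodes were 461 in suffix 1 and 1070 in suffix 2 while CD4 T barcodes were 125 and 121. Suffix 3 held 11 CD8 T, 4 CD4 T and 4 NK barcodes, too few for ratios of its own. The classes were checked on genes that their rules did not use. The T cell costimulator Icos was found in 42.0% of T and 6.21% of NK barcodes, and the NK granzyme Gzma in 67.2% of NK and 7.26% of T barcodes. Between 24 and 43 barcode sequences recurred in each pair of suffixes, none of them a T or NK barcode in both.

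Checkpoint receptors are surface proteins that restrain activated lymphocytes when they meet their ligands. PD-1 (Pdcd1), CTLA-4 (Ctla4), LAG-3 (Lag3), TIGIT and TIM-3 (Havcr2) appear on T cells after stimulation and, together with the nuclear factor TOX, persist on T cells that meet antigen for long. CD103 (Itgae), an integrin chain that binds E-cadherin, and CD69, which removes the exit receptor S1PR1 from the cell surface, mark T cells that stay in a tissue, the brain included, although CD69 also appears early after activation.

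Pdcd1, Ctla4 and Havcr2 recurred in the same CD8 T barcodes, as described further on, and the bases upstream of their start sites are shown so that these genes can be placed and compared. They are the 250 bases before each RefSeq start site (GRCm38.p6), and RefSeq entries were at hand for 4 of the 8 genes, Tigit being the fourth. Capitals mark GGAAA on either strand (TTTCC on the strand shown), the core that NFAT factors recognise. They also mark TGANTCA on either strand, with any base at N, a loose form of the AP-1 motif. The Pdcd1 stretch is chr1:94052554-94052803 on the minus strand, Ctla4 chr1:60908775-60909024 on the plus strand and Havcr2 chr11:46454681-46454930 on the plus strand.
Pdcd1: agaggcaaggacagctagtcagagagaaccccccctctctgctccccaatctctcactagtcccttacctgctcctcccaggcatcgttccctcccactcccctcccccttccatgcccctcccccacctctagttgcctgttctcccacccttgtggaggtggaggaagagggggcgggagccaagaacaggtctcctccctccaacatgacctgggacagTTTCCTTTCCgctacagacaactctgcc
Ctla4: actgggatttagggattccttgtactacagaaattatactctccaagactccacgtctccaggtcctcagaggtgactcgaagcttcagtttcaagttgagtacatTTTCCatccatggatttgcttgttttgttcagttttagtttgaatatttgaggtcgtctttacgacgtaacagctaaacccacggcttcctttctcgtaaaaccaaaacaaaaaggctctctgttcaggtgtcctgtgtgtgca
Havcr2: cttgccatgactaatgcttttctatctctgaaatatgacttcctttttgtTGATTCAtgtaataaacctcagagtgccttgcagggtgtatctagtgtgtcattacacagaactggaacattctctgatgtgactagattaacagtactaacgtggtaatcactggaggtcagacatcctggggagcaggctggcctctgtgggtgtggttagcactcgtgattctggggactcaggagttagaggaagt
GGAAA occurred 2 times in the Pdcd1 stretch, in adjoining copies just before the start site, 1 time in the Ctla4 stretch and in none of the Havcr2 stretch. TGANTCA occurred only in the Havcr2 stretch, as TGATTCA. Of 32851 stretches of the same length, 55.6% held GGAAA and 6.75% held TGANTCA, so the letters alone did not set these genes apart.

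Pdcd1 (chr1:94038305-94052553, minus strand) had its highest level in CD8 T barcodes. These and the following gene positions are those of GENCODE on GRCm38, and each gene was counted from the 3' ends of its transcripts. A Pdcd1 UMI was found in 21.9% of CD8 T barcodes (95% Clopper-Pearson interval 19.8 to 24.0), in 14.4% of CD4 T barcodes (10.3 to 19.4), in 10.4% of T barcodes with neither co-receptor (8.50 to 12.4) and in 1.98% of NK barcodes (0.799 to 4.03). All intervals cover counting error only. As background, 0.196% of oligodendrocyte-like barcodes held a Pdcd1 UMI at a median of 6230 UMIs, against medians of 5093.5 in CD8 T, 4907 in CD4 T and 5964 in NK barcodes. In CPM (counts per 1000000, the gene's UMIs scaled to that total in each group), Pdcd1 stood at 68.7 in CD8 T, 32.9 in T with neither, 31.0 in CD4 T and 5.25 in NK barcodes. The intervals of T with neither and CD4 T overlapped and the others did not. By suffix, the level in CD8 T barcodes was 33.0 CPM in suffix 1, 89.1 in suffix 2 and 70.4 in suffix 3, the last from 4 UMIs. In CD4 T barcodes it was 37.0 CPM in suffix 1 and 20.9 in suffix 2, so the order of CD8 and CD4 was not the same in both.

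Lag3 (chr6:124904361-124911705, minus strand) was found in 20.9% of CD8 T (18.9 to 23.0), 12.8% of CD4 T (8.92 to 17.6), 7.04% of T with neither and 7.34% of NK barcodes. Its levels were 45.7, 24.8, 15.3 and 13.6 CPM in that order, and only the step from CD8 T to CD4 T was free of overlap. LAG-3 is also a microglial transcript in these data: 78.1% of microglia-like barcodes held a Lag3 UMI, at 413 CPM, and 4.36% of oligodendrocyte-like barcodes did too. The C1q genes stood at 490 CPM in CD8 T, 521 in CD4 T and 474 in NK barcodes against 25396 in microglia-like ones. With the Lag3 to C1q ratio of microglia-like barcodes of the same suffix, these C1q UMIs correspond to 8.78 CPM of Lag3 in CD8 T, 8.91 in CD4 T, 8.66 in T with neither and 7.94 in NK barcodes. The measured Lag3 of CD8 T barcodes was several times that amount, while the lower ends of the intervals in T with neither (12 CPM) and NK (9.22 CPM) lay close to it. In CD8 T barcodes Lag3 was at 20.5 CPM in suffix 1 and 60.6 in suffix 2, and no UMI was found in the 11 barcodes of suffix 3.

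Havcr2 (chr11:46454935-46481255, plus strand) was likewise mostly outside lymphocytes. It was found in 45.2% of microglia-like barcodes (73.1 CPM) and in 6.05% of neutrophil-like barcodes (15.6 CPM). Among lymphocytes the share was 8.43% in CD8 T (7.09 to 9.93), 5.60% in CD4 T (3.1 to 9.22), 2.38% in T with neither and 0.847% in NK barcodes, and the NK share was at the background of oligodendrocyte-like barcodes (0.783%). Levels were 18.2, 11.2, 4.90 and 1.75 CPM, with each interval overlapping the next, and the amount implied by C1q was 1.35 CPM in CD8 T and 1.34 in NK barcodes. In CD8 T barcodes Havcr2 was at 10.5 CPM in suffix 1 and 22.8 in suffix 2, whereas in CD4 T barcodes it was at 15.4 and 4.82, the last from 3 UMIs. None of the 108 NK barcodes of suffix 2 held a Havcr2 UMI, which allows up to 3 counts, a share of up to 2.78%. Pdcd1 was also seen in 12.7% of microglia-like barcodes (23.0 CPM), 13.1% in suffix 1, 17.3% in suffix 2 and 0.847% in suffix 3, and the amount implied by C1q in CD8 T barcodes was 0.521 CPM.

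**Figure D1:**
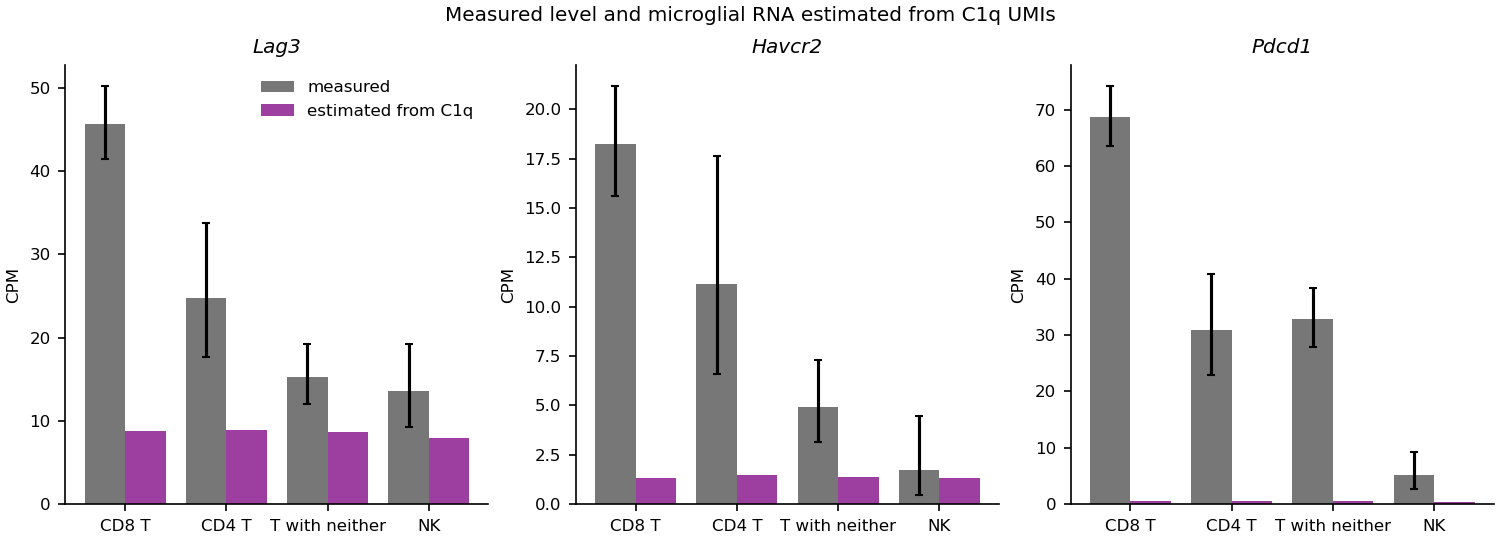
Level of Lag3, Havcr2 and Pdcd1 in CPM in 4 lymphocyte classes, pooled over the suffixes (grey bars, with 95% Poisson intervals), beside the microglial RNA that the C1q UMIs of the same barcodes imply (purple bars). For Lag3 the purple bars lie between 7.94 and 8.91 CPM in all 4 classes while the grey bars run from 13.6 to 45.7 CPM.

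Ctla4 (chr1:60887000-60915832, plus strand) was ordered the other way, with CD4 T above CD8 T. It was found in 39.2% of CD4 T (33.1 to 45.6), 30.2% of CD8 T (27.9 to 32.5), 23.8% of T with neither and 4.80% of NK barcodes, against 0.0978% of oligodendrocyte-like and 0.130% of microglia-like barcodes. The levels were 193, 109, 98.4 and 10.5 CPM, and the intervals of CD8 T and T with neither overlapped. CD4 T barcodes were above CD8 T barcodes in both large libraries, at 176 against 76.6 CPM in suffix 1 and 226 against 128 in suffix 2. Foxp3, the factor that defines regulatory T cells, had a UMI in 5 of the 250 CD4 T barcodes, all 5 of which held Ctla4 (665 CPM against 167 in the other 245).

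Tigit (chr16:43648867-43664146, minus strand) was the rarest of the 5 receptors in T barcodes and, pooled over the suffixes, the only member with a higher level in NK than in T barcodes. A UMI was found in 5.37% of NK (3.26 to 8.25), 2.98% of CD8 T (2.19 to 3.96), 1.76% of T with neither and 1.60% of CD4 T barcodes, and in 1 of 10223 oligodendrocyte-like barcodes. The levels of 8.32, 4.98, 3.67 and 2.48 CPM had overlapping intervals at each step. The NK share was 5.37% in suffix 1 and 5.56% in suffix 2, above the CD8 T shares of 3.25% and 2.90%.

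Tox (chr4:6686353-6991557, minus strand) encodes a nuclear factor that maintains the exhausted state of T cells and is also needed for NK cells. It was found in 21.4% of CD8 T (19.4 to 23.5), 15.5% of NK (11.9 to 19.7), 14.0% of CD4 T and 11.1% of T with neither, at 57.6, 29.8, 26.6 and 25.9 CPM, and the last 3 overlapped. Tox RNA was also present in neuroblast-like barcodes (5.48%, 9.53 CPM), so the oligodendrocyte-like share of 0.792% is the nearer background. In CD8 T barcodes it was at 31.0 CPM in suffix 1 and 73.2 in suffix 2, and in NK barcodes at 30.6 and 28.0.

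Itgae (chr11:73090583-73147446, plus strand) was rare in every class. A UMI was found in 4.47% of CD8 T (3.50 to 5.63), 3.73% of T with neither, 2.26% of NK and 1.60% of CD4 T barcodes, the last being 4 barcodes. The levels of 9.22, 11, 6.57 and 3.72 CPM all had intervals that overlapped their neighbours. CD8 T barcodes had nearly the same level in both large libraries, 9.06 CPM in suffix 1 and 9.40 in suffix 2, and T with neither stood at 14.8 and 6.86.

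Cd69 (chr6:129267325-129275436, minus strand) was found in most lymphocytes: 83.5% of CD8 T (81.6 to 85.3), 78.8% of CD4 T (73.2 to 83.7), 73.9% of T with neither and 64.7% of NK barcodes (59.5 to 69.7). The levels were 816, 648, 738 and 555 CPM, and no interval overlapped its neighbour among these classes. The background was 0.998% in oligodendrocyte-like barcodes, and 20.7% of neutrophil-like and 65.5% of the 29 B-cell-like barcodes also held Cd69. All 4 lymphocyte classes were higher in suffix 2 than in suffix 1, at 895 against 683 CPM in CD8 T, 830 against 525 in CD4 T, 914 against 607 in T with neither and 702 against 506 in NK barcodes.

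The shares depend on depth. With every barcode thinned to 1000 UMIs, and none left out, Pdcd1 was found in 6.81% of CD8 T, 4.40% of CD4 T and 0.847% of NK barcodes, Ctla4 in 9.08%, 21.6% and 1.41%, Tox in 5.58%, 2.40% and 3.39%, and Cd69 in 48.6%, 39.6% and 31.9%. For Lag3 the thinned shares were 4.67%, 3.20% and 1.13%. Havcr2, Tigit and Itgae were at or under 1.49% in each of these classes when thinned, too few for an order.

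**Figure D2:**
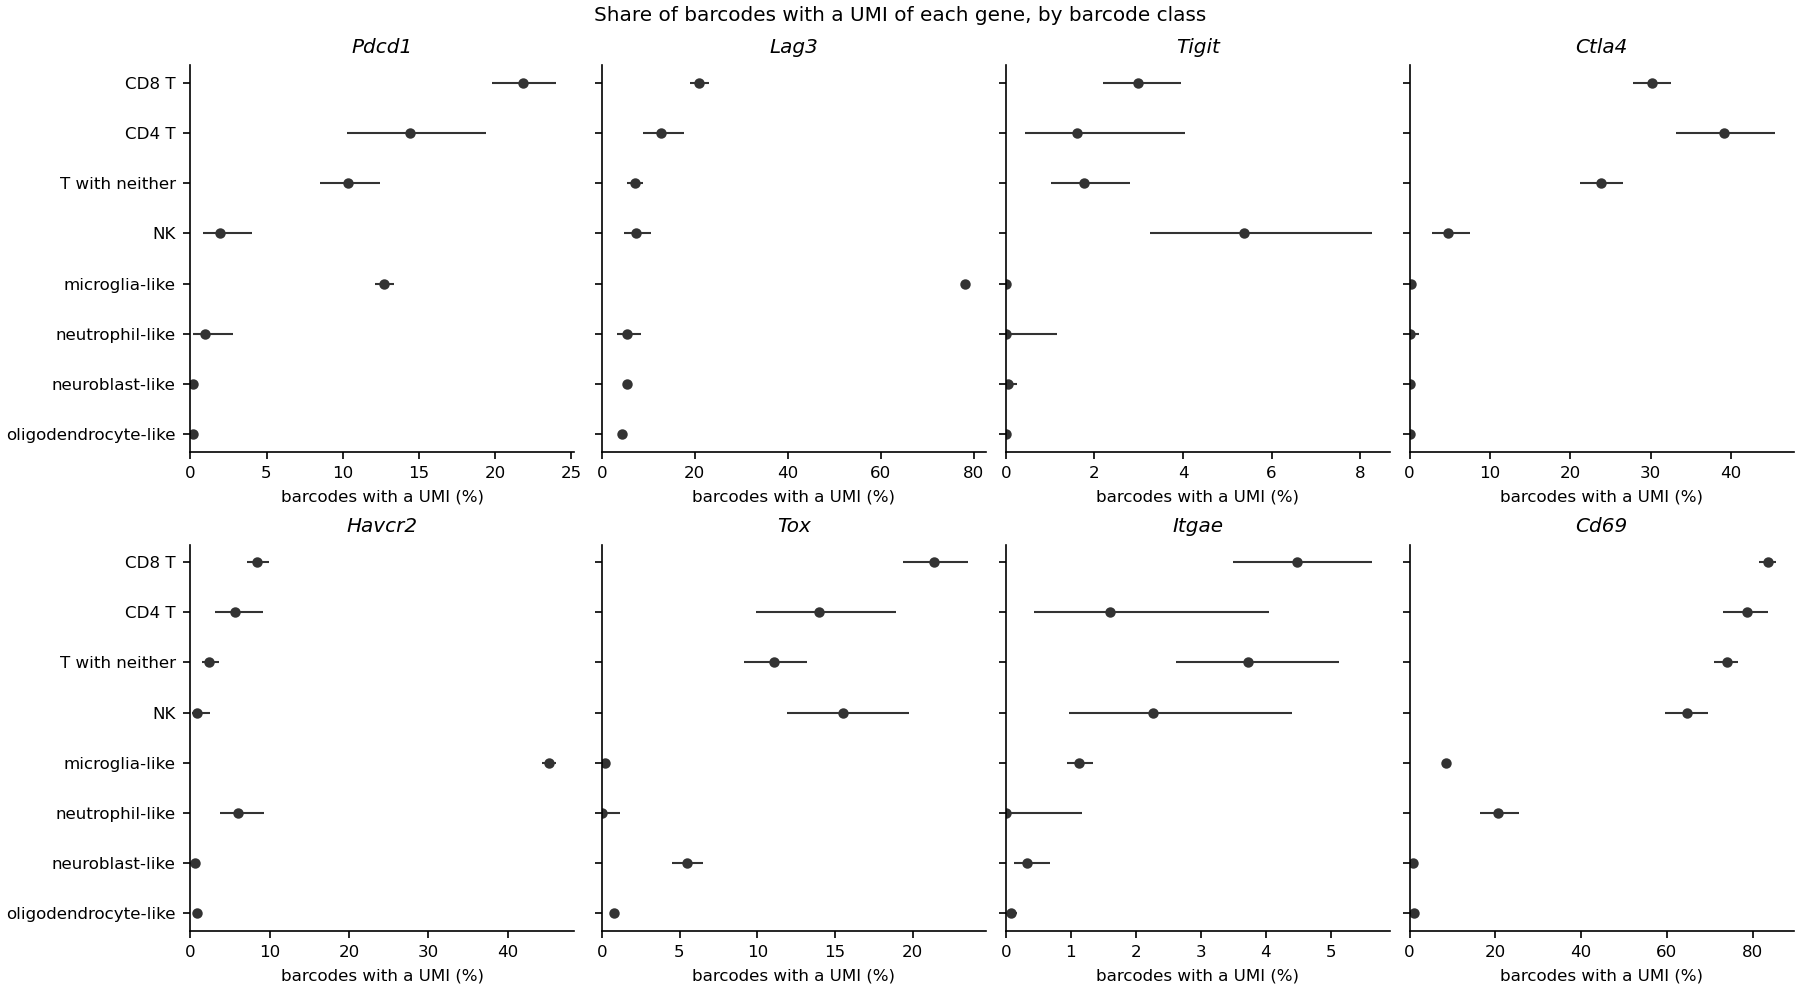
Share of barcodes with a UMI of each gene in percent (x axis, from 0, scaled for each gene) in 8 barcode classes, pooled over the suffixes, with 95% Clopper-Pearson intervals as lines. Lag3 and Havcr2 reach 78.1% and 45.2% in microglia-like barcodes, Ctla4 and Tigit stay at or under 0.130% there, and Cd69 is at 64.7% or more in all 4 lymphocyte classes.

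CD8 T barcodes were then set against CD4 T barcodes. Pooled over the suffixes, the ratio of CPM was 2.22 for Pdcd1 (95% exact conditional interval 1.66 to 3.02), 1.84 for Lag3 (1.33 to 2.62), 2.16 for Tox (1.58 to 3.02), 1.63 for Havcr2 (1.0 to 2.82) and 1.26 for Cd69 (1.18 to 1.34). Itgae gave 2.48 (1.09 to 6.94) on 6 CD4 T UMIs, but 2.94 (0.917 to 15.0) within suffix 1, 1.95 (0.634 to 9.75) within suffix 2 and 0.919 after thinning to 1000 UMIs, and the interval held 1 within each library. For Tigit the interval ran from 0.735 to 7.68, around a ratio of 2.01 from 47 and 4 UMIs. Of the 8 only Ctla4 was lower in CD8 T barcodes, at a ratio of 0.562 (0.495 to 0.641). Since CD8 T barcodes came mainly from suffix 2 and CD4 T barcodes evenly from suffixes 1 and 2, the ratio within each library is the closer comparison. Within suffix 2 it was 4.27 for Pdcd1 (2.48 to 8.07), 4.74 for Havcr2 (1.59 to 23.3), 3.04 for Tox (1.82 to 5.48) and 2.52 for Lag3 (1.5 to 4.54). Within suffix 1 the same genes gave 0.893 (0.609 to 1.34), 0.683 (0.365 to 1.34), 1.08 (0.705 to 1.70) and 0.797 (0.498 to 1.31), with no interval free of 1. The suffix 2 ratio divided by the suffix 1 ratio was 4.78 for Pdcd1 (2.46 to 9.30), 6.94 for Havcr2 (1.90 to 25.3), 3.16 for Lag3 (1.58 to 6.29) and 2.82 for Tox (1.45 to 5.47). The pooled excess of these 4 genes in CD8 T barcodes was thus an excess within suffix 2. Leaving out the barcodes that met another class's rule gave pooled ratios of 2.29 for Pdcd1, 2.28 for Lag3, 1.67 for Havcr2 and 2.23 for Tox. Ctla4 was lower in CD8 T barcodes within both libraries, at 0.436 (0.358 to 0.532) and 0.563 (0.470 to 0.679). Cd69 had a ratio of 1.30 (1.18 to 1.43) in suffix 1 and 1.08 (0.985 to 1.18) in suffix 2.

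The libraries also differed in the level of most of the genes. In CD8 T barcodes the suffix 2 to suffix 1 ratio was 2.96 for Lag3 (2.29 to 3.88), 2.70 for Pdcd1 (2.20 to 3.34), 2.36 for Tox (1.91 to 2.95), 2.17 for Havcr2 (1.49 to 3.23), 1.67 for Ctla4 (1.45 to 1.92) and 1.31 for Cd69 (1.25 to 1.38). Tigit (1.11, 0.590 to 2.18) and Itgae (1.04, 0.657 to 1.66) had intervals that held 1. In CD4 T barcodes only Ctla4 (1.29, 1.02 to 1.62) and Cd69 (1.58, 1.40 to 1.79) had intervals free of 1, and Pdcd1 stood at 0.564 (0.275 to 1.09). In T barcodes with neither co-receptor, Ctla4 (1.92, 1.59 to 2.33), Lag3 (1.87, 1.14 to 3.08) and Cd69 (1.51, 1.41 to 1.61) were higher in suffix 2 and Itgae was lower (0.462, 0.237 to 0.858). There Pdcd1 (0.935, 0.674 to 1.29) and Tox (0.979, 0.678 to 1.41) were level between the libraries within counting error. In NK barcodes the ratio was 4.17 for Pdcd1 (1.14 to 16.7), 4.12 for Lag3 (1.91 to 9.16) and 1.39 for Cd69 (1.23 to 1.56). The Pdcd1 ratio there rests on 7 UMIs in suffix 2 and 5 in suffix 1. The share of NK barcodes with Pdcd1 was not higher in suffix 2, at 1.85% against 2.07%. Microglia-like barcodes were higher in suffix 2 for Pdcd1 (1.49, 1.37 to 1.63), Lag3 (1.30, 1.28 to 1.33) and Cd69 (1.86, 1.70 to 2.05). C1q genes were at 338 CPM in CD8 T barcodes of suffix 1 and 581 in those of suffix 2. They were at 457 and 631 in CD4 T, 409 and 623 in T with neither and 418 and 648 in NK barcodes. How much of the Lag3 difference between the libraries is microglial RNA was not tested. Each suffix is 1 library, so these ratios compare libraries and carry no spread between animals.

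**Figure D3:**
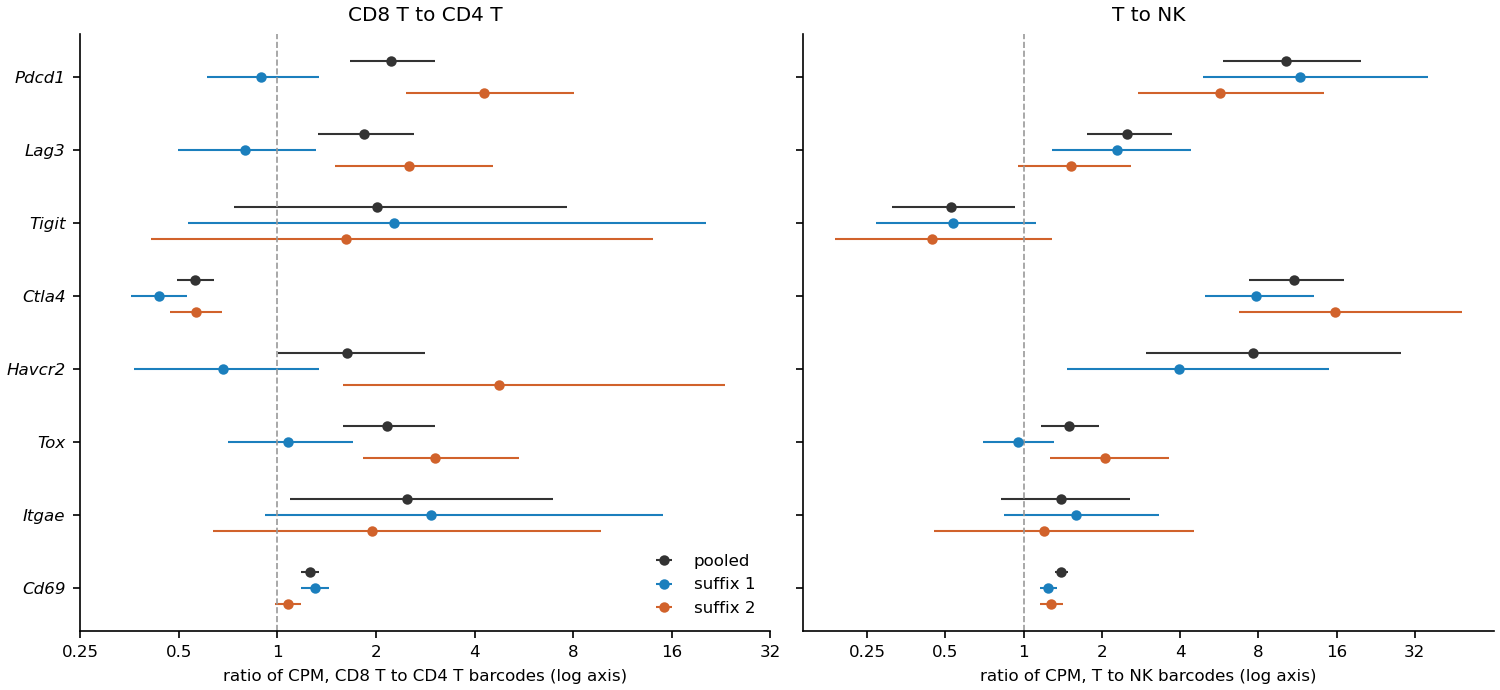
Ratio of CPM between CD8 T and CD4 T barcodes (left) and between T and NK barcodes (right), on log axes, pooled (black) and within suffix 1 (blue) and suffix 2 (orange), with 95% exact conditional intervals for counting error. On the left, the suffix 1 points of Pdcd1, Lag3, Havcr2 and Tox lie between 0.683 and 1.08 and the suffix 2 points between 2.52 and 4.74. Havcr2 has no suffix 2 point on the right because no NK barcode there held a UMI.

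None of the 8 members was called in this comparison, where a call is a ratio of at least 2 on CPM plus 10 among genes with at least 10 UMIs, while 1.13% of the 11978 genes tested were called (0.451% higher in CD8 T and 0.676% higher in CD4 T). A gene under 10 CPM in both groups cannot reach that ratio. This held for Tigit and Itgae, pooled and within suffixes 1 and 2, so the lack of a call says nothing about them. Within suffix 2 alone 4 of the 8 were called higher in CD8 T, at 3.21 for Pdcd1, 2.44 for Tox, 2.22 for Havcr2 and 2.07 for Lag3 on that scale, against 1.17% of genes. Within suffix 1 alone Ctla4 was called higher in CD4 T (0.466), against 1.05% of genes. No member was called in the same direction within both suffixes, against 0.601% of genes (0.284% higher in CD8 T and 0.317% higher in CD4 T). Pooled, the median log2 ratio of the members on CPM plus 10 was 0.45, against -0.01 over all genes tested. On that scale within suffix 1, Ctla4 (0.466), Havcr2 (0.808), Lag3 (0.854) and Pdcd1 (0.916) had ratios under 1. Tox (1.06), Tigit (1.22), Cd69 (1.29) and Itgae (1.46) were above 1 there, so the pooled shift was not seen in all members of that library. Of 14 other checkpoint and costimulatory receptors, Cd160 was higher in CD8 T (69.6 against 7.44 CPM), and Icos (104 against 308), Tnfrsf4 (18.7 against 334) and Tnfrsf18 (82.8 against 243) were higher in CD4 T barcodes. All of these were called in the same direction within suffix 1 and within suffix 2. Of 6 effector genes, 4 were higher in CD8 T: the granzymes Gzmk (159 against 18.0 CPM) and Gzma (203 against 6.20), the pore protein Prf1 (40.0 against 1.86) and the chemokine Ccl5. Of 9 residency genes, Xcl1 was higher in CD8 T (660 against 99.8 CPM) and none was higher in CD4 T. Of 6 circulation genes, the exit receptor S1pr1 (28.3 against 77.5 CPM) and the survival receptor Il7r (69.2 against 156) were higher in CD4 T, though neither was called in the same direction within both suffixes. Of 13 transcription factors of exhaustion and memory, Eomes was higher in CD8 T (48.9 against 1.86 CPM) and Ikzf2 in CD4 T (22.2 against 64.4), the latter not within both suffixes.

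T barcodes as a whole were also set against NK barcodes. Pdcd1 was at 10.2 times its NK level (5.83 to 19.9) and Ctla4 at 11 times (7.34 to 17.1), and these were the 2 of 8 members called higher in T, where 1.21% of 13039 genes were. No member was called higher in NK, where 1.11% of genes were (2.32% in either direction). Here too Tigit and Itgae were under 10 CPM in both classes when pooled and could not be called. Pdcd1 and Ctla4 were also called within suffix 1 (ratios of 11.6 and 7.82), against 1.16% of genes higher in T there, and within suffix 2 (5.71 and 15.8), where Havcr2 was called too, against 1.81%. Genes called in the same direction within both suffixes were 1.58% (0.805% higher in T and 0.775% higher in NK). Havcr2 had a ratio of 7.65 (2.95 to 28.3) on 4 NK UMIs, with the microglial amounts above standing in both classes. Lag3 had a ratio of 2.51 (1.75 to 3.73) pooled, 2.29 (1.29 to 4.41) in suffix 1 and 1.52 (0.950 to 2.59) in suffix 2, the last with an interval that held 1. Tigit went the other way at 0.525 (0.312 to 0.923), with 0.535 in suffix 1 (0.269 to 1.12) and 0.444 in suffix 2 (0.188 to 1.28). Tox had a ratio of 1.5 (1.17 to 1.95) pooled, 0.949 (0.697 to 1.31) in suffix 1 and 2.06 (1.26 to 3.64) in suffix 2, where the ratio of the suffixes was 2.17 (1.21 to 3.90). Cd69 was at 1.39 (1.32 to 1.48) and Itgae at 1.40 (0.819 to 2.56). Among the related receptors, Icos, Cd28 and Tnfrsf4 were called higher in T, and Cd244 and Tnfrsf9 higher in NK barcodes.

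The receptors other than Tigit tended to be found in the same CD8 T barcodes. Tigit was held by 4.75% of barcodes with Pdcd1 against 2.49% without, and by 4.52% against 2.32% for Ctla4. For Lag3 the shares were 3.42% against 2.87% and for Havcr2 3.08% against 2.97%, with overlapping intervals in each of these pairs. Among the 337 CD8 T barcodes with a Pdcd1 UMI, 34.7% also held Lag3, 48.7% Ctla4, 18.1% Havcr2 and 40.9% Tox, against 17.0%, 25%, 5.73% and 15.9% of the 1205 without Pdcd1. The 130 barcodes with Havcr2 held Ctla4 in 63.1%, Lag3 in 46.2% and Pdcd1 in 46.9%, against 27.1%, 18.6% and 19.5% of the others. Cd69 and Itgae did not follow. Among barcodes with Pdcd1, 81.0% held Cd69 and 5.34% Itgae, against 84.2% and 4.23% without it. C1q genes, which measure microglial RNA only, were at 510 CPM with Pdcd1 and 483 without. The rule of another class was also met by 31 of the 337 (9.20%) and 88 of the 1205 (7.30%). Without these 31 and 88 barcodes, the shares with and without Pdcd1 were 33.7% and 16.9% for Lag3, 47.7% and 25.2% for Ctla4, 18.0% and 5.73% for Havcr2 and 40.8% and 15.9% for Tox. Whether another cell's RNA adds to the co-detection was not tested. Lag3 itself went with more C1q, at 618 CPM where it was found and 449 where it was not. Barcodes with Pdcd1 were a little deeper (a median of 5589 against 4998 UMIs). After thinning to 1000 UMIs the shares with and without Pdcd1 were 13.3% and 4.04% for Lag3, 21.0% and 8.21% for Ctla4, 4.76% and 1.25% for Havcr2 and 14.3% and 4.94% for Tox. Within suffix 2, where 93 barcodes kept Pdcd1, the shares were 15.1% and 5.42%, 23.7% and 9.21%, 5.38% and 1.54% and 16.1% and 5.53% in that order. In suffix 1 only 12 kept Pdcd1, and none of these held any of the 4 other genes, too few for a share. Within suffix 2 Pdcd1 went with Lag3 (40.6% against 19.5%), Ctla4 (52.5% against 24.7%), Havcr2 (20.7% against 6.18%) and Tox (45.6% against 16.3%), with intervals apart in each case. Within suffix 1, with 74 barcodes holding Pdcd1, all 4 pairs had overlapping intervals: Lag3 was at 14.9% (7.66 to 25) against 12.1% (9.06 to 15.8) and Tox at 24.3% (15.1 to 35.7) against 15.5% (12 to 19.5). Havcr2 with Ctla4 had intervals apart in suffix 1 as well, at 57.7% (36.9 to 76.6) of 26 barcodes against 25.1% (21.1 to 29.4), but barcodes with Havcr2 were deeper, at medians of 8735 against 6220 UMIs in suffix 1 and 6458 against 5015.5 pooled. After thinning, 3 barcodes of suffix 1 kept a Havcr2 UMI, too few for a share. Intervals in suffix 1 were also apart for Lag3 with Tox, at 34.5% (22.5 to 48.1) of 58 barcodes against 14.4% (11.1 to 18.2). Lag3 with Havcr2 was at 15.5% (7.35 to 27.4) against 4.22% (2.48 to 6.67). Barcodes with Lag3 were deeper there too, at a median of 7063.5 against 6240 UMIs, and 5 kept a Lag3 UMI after thinning. In CD4 T barcodes, 36 held Pdcd1, at a median of 6958 UMIs against 4692 in those without. Of these 36, 8.33% held Lag3, 50% Ctla4, 13.9% Havcr2 and 27.8% Tox, against 13.6%, 37.4%, 4.21% and 11.7% of those without, with overlapping intervals in each pair.

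**Figure D4:**
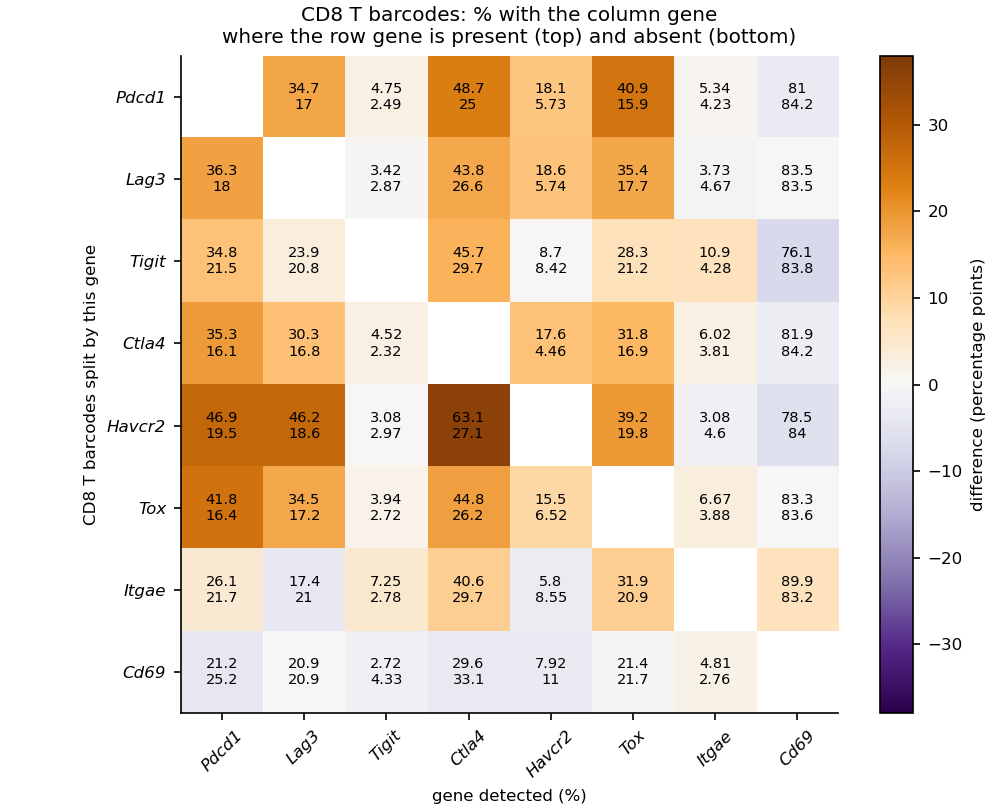
Co-detection of the 8 genes in the 1542 CD8 T barcodes: each cell gives the percent of barcodes with the column gene where the row gene has a UMI (top) and where it has none (bottom), and the colour is their difference in percentage points. The block of Pdcd1, Lag3, Ctla4, Havcr2 and Tox is orange throughout, and the Itgae and Cd69 columns stay pale.

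The number of the 5 receptors with a UMI was counted in each CD8 T barcode. There were 732 barcodes with none (47.5%), 474 with 1 (30.7%), 213 with 2 (13.8%) and 123 with 3 to 5 (7.98%, 6.67 to 9.44). The share with 3 to 5 was 3.04% in suffix 1 (14 of 461) and 10.2% in suffix 2 (109 of 1070), at medians of 6273 and 4754.5 UMIs, so the deeper library had the lower share. Of the 250 CD4 T barcodes 11 held 3 to 5, of the 966 with neither 6 did and of the 354 NK barcodes 1 did. Median UMIs rose with the number, from 4940.5 with none to 6511 with 3 to 5, so the levels that follow are in CPM. Scaling to CPM does not undo the sorting of deeper barcodes into the groups with more receptors. Barcodes of similar depth were compared for Tox and Cd69 only, not for the other genes that follow. C1q genes stood at 451, 534, 469 and 544 CPM in the 4 groups, and 15 of the 123 barcodes with 3 to 5 receptors also met the rule of another class, against 52 of the 732 with none.

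Across CD8 T barcodes with 0, 1, 2 and 3 to 5 receptors, Tox was at 27.0, 55.4, 97.8 and 117 CPM. Cd69 ran the other way, at 958, 884, 623 and 420 CPM, and Itgae showed no order at 8.42, 11.2, 7.80 and 9.02 CPM. Comparing barcodes with at least 2 receptors with those with none, the ratio was 3.96 for Tox (3.16 to 4.98), 0.552 for Cd69 (0.519 to 0.587) and 0.994 for Itgae (0.554 to 1.75). Cd69 gave 0.537 (0.470 to 0.611) within suffix 1 and 0.521 (0.485 to 0.559) within suffix 2. Tox gave 4.56 (3.47 to 6.07) within suffix 2 and 1.59 (0.947 to 2.62) within suffix 1, where its levels were 25.1, 34.6, 43.2 and 32.1 CPM.

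Some genes of the memory and circulating states were lower where receptors were many. Of the 6 circulation genes, 2 had pooled intervals below 1 for at least 2 receptors (Il7r and Klf2) and the other 4 held 1. Within suffix 1, S1pr1 (1.94, 1.29 to 2.88) and Ccr7 (1.80, 1.26 to 2.56) were above 1. Tcf7, the factor of memory and progenitor T cells, was at 76.2 CPM with no receptor and 13.1 with 3 to 5, and the ratio for at least 2 receptors was 0.663 (0.453 to 0.952) within suffix 1 and 0.424 (0.308 to 0.577) within suffix 2. Id3 gave 0.209 (0.131 to 0.322) pooled, Il7r 0.493 (0.392 to 0.616) and Klf2, which sustains S1pr1 expression, 0.419 (0.392 to 0.447), each below 1 within both libraries. Higher with many receptors were the cytotoxic protease Gzmb (2.56, 2.36 to 2.78), the costimulatory receptor Tnfrsf9 (3.73, 2.49 to 5.70), the repressor Prdm1 (2.37, 1.61 to 3.51) and the cell division genes Mki67 (2.25, 1.89 to 2.68) and Top2a (2.48, 2.13 to 2.90), all of them above 1 within both libraries. The size differed for Gzmb, at 5.50 (4.78 to 6.33) in suffix 1 and 1.66 (1.5 to 1.85) in suffix 2, and for Prdm1, at 4.39 (2.15 to 9.40) and 1.69 (1.06 to 2.73). In suffix 1 a Gzmb UMI was found in 29.3%, 36%, 37.3% and 64.3% of barcodes with 0, 1, 2 and 3 to 5 receptors. Other receptors did not all follow Tnfrsf9. Pooled intervals held 1 for Icos (0.965, 0.819 to 1.13) and Cd160 (1.14, 0.938 to 1.38), and Cd244 was higher (4.22, 1.25 to 18.2). Icos was above 1 in suffix 1 (1.42, 1.06 to 1.89) and below 1 in suffix 2 (0.797, 0.651 to 0.974). The remaining checkpoint and costimulatory receptors were not compared here. The effector genes did not move together. Gzmk was higher (1.65, 1.47 to 1.86), and Prf1 had an interval that held 1 (1.11, 0.868 to 1.43). Ifng (0.788, 0.742 to 0.837) and Ccl5 (0.953, 0.936 to 0.970) were lower for at least 2 receptors, within both libraries as well. Ccl5 was not ordered by receptor number when pooled, at 7959, 8853, 8939 and 6013 CPM with 0, 1, 2 and 3 to 5 receptors. With 2 receptors it was above the level with none in suffix 2 (11547 against 9629 CPM) and below it in suffix 1 (4047 against 5727). Gzma was not compared here. Of the 9 residency genes, 4 had pooled intervals above 1 and 2 below. The numbers above and below were 1 and 3 within suffix 1, and 4 and 1 within suffix 2. Those above when pooled were Cxcr6, Rgs1, Runx3 and Xcl1, and those below were Ahr (0.251, 0.109 to 0.512) and Rgs2 (0.862, 0.797 to 0.931). For Xcl1 the level had no order, at 616, 704, 523 and 867 CPM with 0, 1, 2 and 3 to 5 receptors. The share of barcodes with an Xcl1 UMI fell across these groups, at 53.8%, 49.6%, 46.0% and 44.7%. The chemokine receptor Cxcr6 gave 1.64 (1.45 to 1.85), with 1.23 (0.943 to 1.60) in suffix 1, and Rgs1 gave 1.23 (1.16 to 1.30), with 0.845 (0.745 to 0.957) in suffix 1 and 1.25 (1.17 to 1.33) in suffix 2. Eomes was not the same in both libraries, at 0.728 (0.450 to 1.14) and 2.14 (1.58 to 2.90). Of the other factors of exhaustion and memory, Nr4a1 (0.598, 0.541 to 0.660) and Id2 (0.747, 0.696 to 0.802) were lower, also within both libraries. Pooled, Tbx21 was lower (0.655, 0.488 to 0.872) and Nr4a2 higher (1.34, 1.19 to 1.51). Intervals held 1 for Tbx21 within both libraries, for Nr4a2 within suffix 1 and for Nr4a3 pooled (1.01, 0.863 to 1.18). Tox2, Batf, Bach2 and Ikzf2 were not compared here. The dividing barcodes were deeper: 162 CD8 T barcodes with an Mki67 UMI had a median of 9405 UMIs, and in CPM they had 2.11 times the Havcr2 (1.51 to 2.93), 1.61 times the Tox (1.32 to 1.95) and 0.997 times the Lag3 (0.772 to 1.27) of the others.

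**Figure D5:**
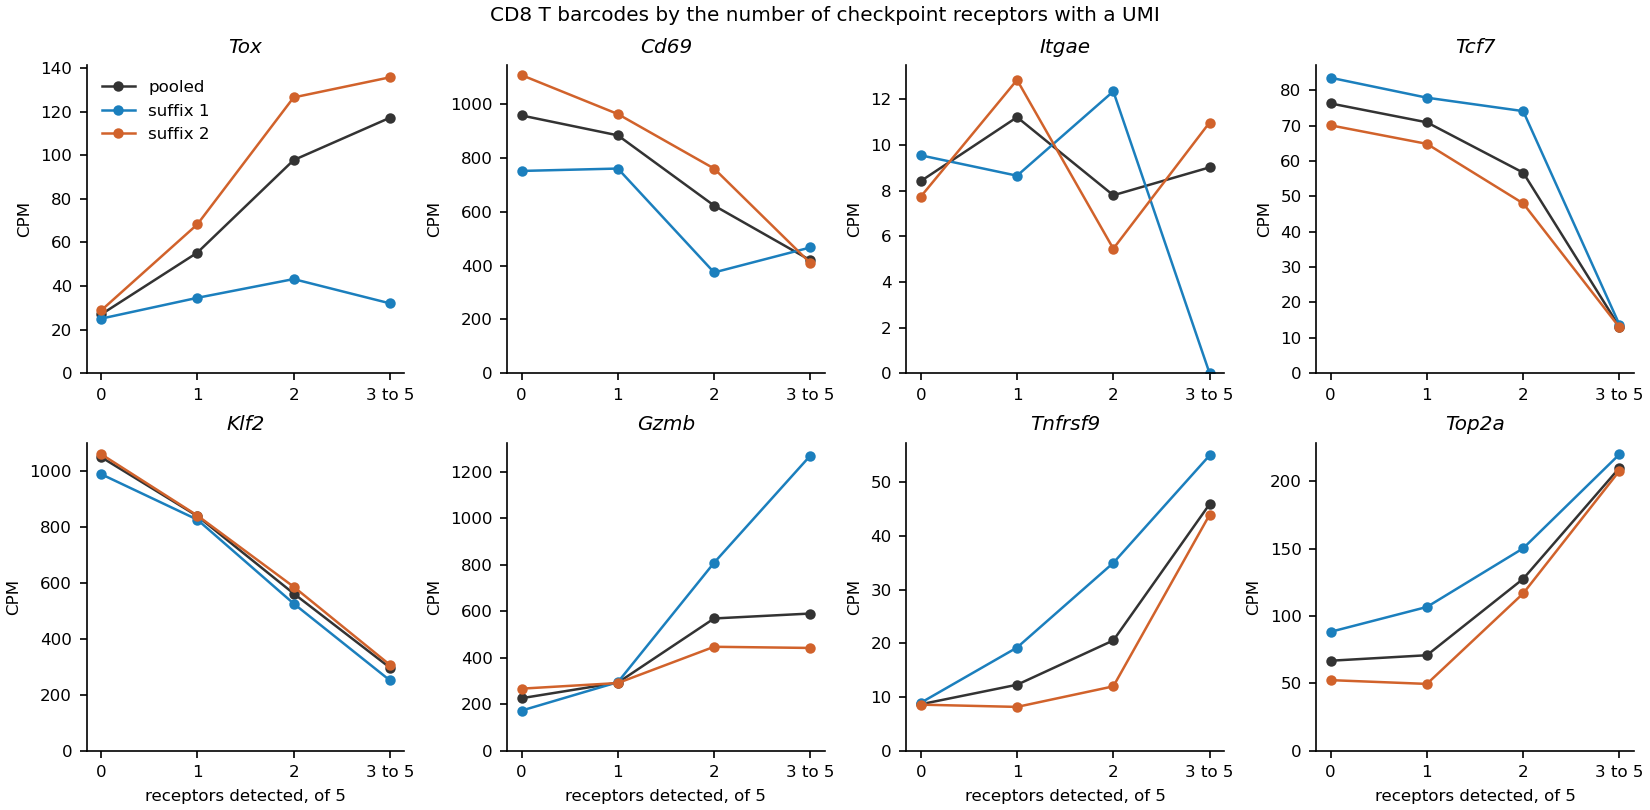
Level in CPM of Tox, Cd69, Itgae and 5 other genes in CD8 T barcodes with 0, 1, 2 and 3 to 5 of the 5 receptors detected, pooled (black) and in suffix 1 (blue) and suffix 2 (orange), on linear axes from 0. Cd69, Tcf7 and Klf2 end lower than they start in both libraries, and Tox climbs from 28.8 to 136 CPM in suffix 2 but stays between 25.1 and 43.2 CPM in suffix 1.

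The 69 CD8 T barcodes with an Itgae UMI were compared with the 1473 without, at medians of 5065 and 5094 UMIs. Of the 9 residency genes, 4 had an interval above 1 and none below: Rgs2 at 2.15 times (1.93 to 2.39), Xcl1 at 1.65 times (1.5 to 1.82), Rgs1 at 1.59 times (1.45 to 1.74) and Cxcr6 at 1.35 times (1.08 to 1.67). Within suffix 1 (25 barcodes with Itgae) and suffix 2 (44), Rgs2 gave 2.89 and 1.65, Xcl1 1.79 and 1.47 and Rgs1 2.16 and 1.36, all with intervals above 1, while Cxcr6 gave 1.40 (0.888 to 2.12) and 1.33 (1.02 to 1.71). Cdh1, which encodes the ligand of CD103, was at 49.1 against 18.2 CPM (ratio 2.70, 1.63 to 4.26), and Cd160 at 1.70 times (1.24 to 2.27). Of the 6 circulation genes, Ccr7 at 0.100 (0.0121 to 0.364) and Klf2 at 0.714 (0.627 to 0.809) had intervals below 1 and the other 4 held 1. Klf2 gave 0.409 (0.306 to 0.535) in suffix 1 and 0.913 (0.788 to 1.05) in suffix 2. The memory factor Tcf7 was lower (0.430, 0.221 to 0.757), as were Eomes (0.278, 0.101 to 0.610) and Gzmk (0.561, 0.397 to 0.771). Values by suffix are not given for Tcf7, Eomes, Gzmk, Cdh1 and Cd160. The other genes of their lists are not given for this split, so these genes do not stand for their lists. Cd69 was found in 89.9% of these barcodes and 83.2% of the others.

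By the Pearson correlation of ln(1 + counts per 10000) over the 2769 T barcodes, among 9128 genes with a UMI in at least 2% of them, the genes most like each member were as follows. The correlations are descriptive, and barcodes share library and depth. For Cd69 they were the immediate early genes Jun (0.377), Klf6 (0.375) and Fos (0.370), with similar values within suffix 1 and suffix 2 (0.343 to 0.383). For Pdcd1 they were Rgs16 (0.221), S100a4 (0.205) and Tox (0.204), and for Tox Rgs16 (0.213), Pdcd1 and Serpina3g (0.174). Rgs16, a regulator of G protein signalling, also stood among the first 3 for Lag3 (0.196) and Havcr2 (0.166), but with Pdcd1 it reached 0.275 in suffix 2 and 0.0349 in suffix 1. Lag3 was most like Cd8b1 (0.210) and Nkg7 (0.198), Havcr2 most like Lgals1 (0.192) and Adam8 (0.173), and Ctla4 most like Tnfrsf4 (0.225), Hif1a (0.179) and Icos (0.174). For Tigit the highest values were those of Slc9a8 (0.137), Gtpbp1 (0.102) and Rab11fip2 (0.0893), and for Itgae those of Cd7 (0.114), Nr1d1 (0.112) and Cd79b (0.112), weak correlations in sparse counts.

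The ligands of these receptors were spread over other classes. Cd274, which encodes the PD-1 ligand PD-L1, was at 274 CPM in neutrophil-like, 25.1 in microglia-like and 39.5 in CD8 T barcodes, and Pdcd1lg2 at 31.6 in CD4 T, 22.3 in NK and 10.7 in CD8 T barcodes. Of the CTLA-4 ligands, Cd86 was at 236 CPM in microglia-like and 38.5 in CD8 T barcodes, and Cd80 at 60.5 in neutrophil-like barcodes and 1.27 in CD8 T. Of the TIGIT ligands, Pvr was at 42.8 CPM in endothelial-like barcodes and Nectin2 at 29.3 in microglia-like barcodes. Lgals9, which encodes a TIM-3 ligand, was at 94.4 CPM in microglia-like, 83.7 in neutrophil-like and 78.6 in endothelial-like barcodes. Fgl1, which encodes a LAG-3 ligand, had no UMI in any T or NK barcode, and other ligands of LAG-3 were not examined here. Cdh1 was at 19.6 CPM in CD8 T, 15.8 in NK and 1.24 in CD4 T barcodes and at 0.0826 in microglia-like ones.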

How the data were processed

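The deposited file is a matrix of raw UMI counts, made by the authors with Cell Ranger 3.1.0 (STAR aligner, mm10), which down-sampled reads across libraries before aggregation. Per the submitters' notes Seurat 3.1.1 was used downstream, and its output was not used here. Barcodes with at least 1000 UMIs and at most 30% mitochondrial UMIs were kept. Other classes needed at least 4 of 6 marker genes, and NK barcodes at least 2 of Ncr1, Klrb1c, Klre1 and Klra8. Doublets were not called: the C1q limit removed T barcodes with much microglial RNA, and alternatives left out barcodes meeting a further class rule or above upper limits. Counts were summed per class and suffix (Python 3.11.15, NumPy 2.4.6, SciPy 1.17.1). Intervals (95%) are Clopper-Pearson for shares, Poisson for CPM and conditional binomial for ratios, and the interval of a ratio of ratios is the normal approximation on the log scale. A count of 0 allows up to 3 counts. PCR duplicates are removed by UMIs, but barcodes of 1 library share their animals, so intervals cover counting error only. Members, gene lists and the naming rule (all 8 members, list genes past 2-fold, the 3 genes most like each member) were chosen with earlier results of these data known. Ratios by the number of receptors and by Itgae, and the promoter motifs, were chosen after values were seen. The scripts were tested on simulated data: of 200 genes changed 4-fold between CD8 T and CD4 T barcodes, 100% were called among 11934 genes, and at least 87.3% of barcodes of each class were recovered. Simulated CD8 T and CD4 T barcodes had their own co-receptor genes set to a fixed level and the other co-receptor set to 0. The recovery therefore does not measure how well the CD8 and CD4 split works in the data, where 966 of 2769 T barcodes had neither. The changed genes were drawn only from genes more abundant in CD8 T barcodes than Lag3, Havcr2, Itgae and Tigit. Recovery at the lower levels of these members was not tested. Gene positions are from GENCODE (GRCm38).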

Additional observations from a re-analysis of the deposited data

Results flagged for a closer look

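Barcodes with at least 2 T genes but with C1q genes at 0.5% of UMIs or more entered no comparison of the report, and their members were flagged because the share with a UMI was above the 1.21% that a count of 0 allows among these 248 barcodes. Of them, 28.6% held Pdcd1, 72.2% Lag3, 26.6% Ctla4, 46.0% Havcr2, 19.0% Tox, 5.65% Itgae and 73.8% Cd69. Their median was 11760 UMIs and 219 of the 248 also met the rule of another class. Whether they are T cells joined with microglia in a droplet was not tested.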

How the results depend on the processing

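Depth, few CD4 T and NK UMIs and 1 library per suffix limit these results. Leaving out each suffix in turn moved the CD8 to CD4 ratio from 0.901 to 4.07 for Pdcd1, 0.798 to 2.56 for Lag3, 0.684 to 4.83 for Havcr2, 1.09 to 3.1 for Tox, 0.443 to 0.577 for Ctla4 and 1.07 to 1.28 for Cd69. The values under 1 for Pdcd1, Lag3 and Havcr2 and the lowest for Tox came without suffix 2, which holds most CD8 T barcodes. The T to NK ratio ran from 5.79 to 11.7 for Pdcd1, 1.53 to 2.52 for Lag3, 0.940 to 2.08 for Tox and 1.24 to 1.40 for Cd69, and the Tox ratio by receptor number from 1.66 to 4.63, the lowest without suffix 2 for Tox in both cases. With 2 or more UMIs required for CD8 and CD4, the CD8 to CD4 ratio was 1.48 for Pdcd1, 0.693 for Ctla4 and 1.5 for Cd69. Thinned to 1000 UMIs it was 1.57 for Pdcd1, 0.393 for Ctla4, 0.919 for Itgae and 1.35 for Cd69, and with each suffix weighted equally 0.683 for Ctla4 and 0.930 for Cd69. With upper limits on UMIs and genes it was 0.646 for Ctla4, and the Cd69 ratio by receptor number was 0.625, or 0.654 in the middle 50% of barcodes by UMIs. The T to NK ratio thinned to 2000 UMIs was 4.73 for Pdcd1, 4.33 for Lag3, 1.96 for Tox and 1.51 for Cd69. With strict NK barcodes (3 or more NK genes and no Cd3d, Cd3g or Trac) it was 4.11 for Itgae and 1.26 for Cd69, and for Cd69 1.25 with equal weights, 1.54 as a mean over barcodes and 1.54 thinned to 1000 UMIs. The causes were not tested. Genes called between CD8 T and CD4 T numbered 135, but 1073 with a pseudocount of 1 CPM, 31 the same way within every suffix and 72 within suffixes 1 and 2. Between T and NK they numbered 303, but 1508 and 129 under the first 2 of these. In all, 83 of 102 alternative CD8 to CD4 ratios and 94 of 109 T to NK ratios stayed within the interval of the reported value. No value could be had for Tigit and Havcr2 (CD8 to CD4) thinned to 1000 UMIs, or for Havcr2 (T to NK) thinned or without suffix 1, where a group had no UMI. The calls within suffixes 1 and 2, and the alternatives for receptor number, were chosen after seeing the data. No paired analysis was possible because the labels give each condition 1 sample with no replicate number.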
